A study of Mus musculus with 2 samples.

Results

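Hedgehog signalling was followed through 7 genes of the mouse uterus: the ligand Ihh, its receptor Ptch1, the signal transducer Smo, the transcription factors Gli1, Gli2 and Gli3, and the ligand-binding inhibitor Hhip. They were taken by gene symbol as the core of the pathway, and 7 of 7 were found among the 32285 genes counted. Mice of both groups had received the chemotherapy drug doxorubicin at 3 mg/kg, either alone (DOX) or together with anti-Müllerian hormone, a gonadal hormone of the TGF-beta family, at 0.75 mg/kg (DOX plus AMH). Uteri were taken 4 h after treatment, and tissue of 5 animals was pooled into 1 droplet single-cell library per group. The design text gives an age of postnatal day 25 and 2 weekly doses for animals used in bulk sequencing. Whether the animals of these libraries had the same age and schedule, and their strain, is not given in the sources used here. Doxorubicin was common to both groups, and no library from mice without it is analysed here.

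In the hedgehog pathway a secreted ligand binds Ptch1, which otherwise keeps Smo inactive. Freed Smo acts at the primary cilium, where Gli2 and Gli3 then become activators instead of being processed into repressors. Gli1, Ptch1 and Hhip are themselves among the target genes, so their transcripts are widely read as a gauge of pathway output. In the uterus Ihh is known as an epithelial signal under control of the progesterone receptor, received by the stroma beneath.

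The members lie on 5 mouse chromosomes (GRCm38, the same assembly as mm10, GENCODE M21 annotation). Ihh spans chr1:74945315-74951672 on the minus strand, and Gli2 spans chr1:118834132-119053619, also on the minus strand. Ptch1 spans chr13:63508328-63573598 on the minus strand and Gli3 spans chr13:15463235-15730026 on the plus strand. Smo spans chr6:29735503-29761365 on the plus strand. Hhip spans chr8:79965851-80058006 on the minus strand. Gli1 spans chr10:127329882-127341974 on the minus strand and overlaps the protein-coding gene Arhgap9 and the antisense RNA Gm47200 on the other strand. Whether strand was used in counting is not given in the sources used here, so reads of Gli1 and of these neighbours may not be told apart.

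The 250 bases before the annotated starts of Ptch1 and Hhip are shown because cells with Hhip also held more Ptch1, as described below. The RefSeq windows are from GRCm38.p6 and read 5′ to 3′ on the minus strand, with the letters CCACCC, the core of the GLI recognition sequence, in capitals. The Ptch1 window, chr13:63565736-63565985, lies inside the gene between exons of longer Ptch1 transcripts, and the Hhip window, chr8:80058009-80058258, lies outside any annotated gene.
Ptch1: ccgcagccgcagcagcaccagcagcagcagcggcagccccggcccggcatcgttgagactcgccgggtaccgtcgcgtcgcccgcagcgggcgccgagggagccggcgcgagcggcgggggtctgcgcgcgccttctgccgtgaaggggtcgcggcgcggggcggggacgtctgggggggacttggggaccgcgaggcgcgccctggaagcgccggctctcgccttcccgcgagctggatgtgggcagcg
Hhip: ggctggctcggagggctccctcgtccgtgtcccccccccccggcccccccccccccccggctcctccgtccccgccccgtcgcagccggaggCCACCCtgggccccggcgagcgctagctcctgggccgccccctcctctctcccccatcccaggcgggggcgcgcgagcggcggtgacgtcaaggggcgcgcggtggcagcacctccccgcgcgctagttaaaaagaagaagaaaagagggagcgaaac
The full GLI letters GACCACCCA were searched on both strands of the 300-base RefSeq windows, which add the 50 bases after the start, and were in 83 of 32851 windows (0.253%). None of the 6 members with a window (Ihh, Ptch1, Smo, Gli2, Gli3 and Hhip) held them. The shorter CCACCC, which overlaps the full letters, was in 31.5% of all windows and in those of Ihh, Smo, Gli2, Gli3 and Hhip. It was not among the letters of the Ptch1 window. In Hhip the match began 158 bases before the start, at position -158.

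The 2 libraries held 129530270 (DOX) and 97887259 (DOX plus AMH) unique molecular identifiers (UMIs, each counting 1 captured RNA molecule). After filters, 7387 and 6700 cells remained, with medians of 13739 and 10099 UMIs. The libraries shared 17 cell barcodes, 13 of them among kept cells. Cells fell into 28 clusters, named "-like" after marker genes, and 10 classes had at least 50 cells in each library. Squamous epithelial-like cells, led by Krt5 and Krt14, numbered 7 in DOX and 478 in DOX plus AMH and were left out of the comparisons, and a dividing stromal-like cluster (cluster 6) numbered 258 and 27. Levels are given as CPM, the UMIs of a gene scaled to 1000000 UMIs of the class. With 1 library per group there is no replicate spread and no test, so intervals (95%, exact) cover counting error only, and a gene was counted as apart at 1.3-fold when it had at least 50 UMIs over both libraries. Differences between the 2 pools of animals and differences between treatments cannot be told apart.

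Ihh, the ligand, was found almost entirely in epithelial-like cells. They made up 3.45% of kept cells and held 88.1% of the 194 Ihh UMIs, 94 in DOX and 77 in DOX plus AMH. Its level there was 6.48 CPM (5.24 to 7.93) in DOX and 10.3 CPM (8.10 to 12.8) in DOX plus AMH, a log2 ratio of 0.66 (0.21 to 1.11). The DOX plus AMH library was the higher one, and the 2 intervals, which cover counting error only, did not overlap. Few cells held much of the count: 3 cells held 28 of the 94 UMIs in DOX, and 1 cell held 16 of the 77 in DOX plus AMH. Over 14 alternatives the log2 ratio lay between 0.42 and 2.17, the highest with each library clustered on its own. In stromal-like cells only 6 and 3 Ihh UMIs were seen among 4910 and 3667 cells, and in mesothelial-like, pericyte-like, dendritic-like, lymphocyte-like and lymphatic endothelial-like cells none in either library. Of 4 members counted in the epithelial-like class, 1 (Ihh) was higher by 1.3-fold or more and 0 were lower, where 12.1% of 12439 counted genes were higher and 11.2% lower.

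Within the epithelium Ihh was concentrated in the gland-like cluster 25, which was 0.674% of kept cells and held 55.7% of Ihh UMIs. This cluster carried Foxa2, a transcription factor required for uterine glands, and the gland chemokine Cxcl15. In DOX plus AMH they were at 125 and 287 CPM there, and at 47.4 and 125 CPM in the squamous epithelial-like cluster 22. In cluster 25 the other 2 gland markers listed, Prss29 and Spink1, had 0 UMIs in DOX and 205 and 21 UMIs in DOX plus AMH. The gland-like cells of the libraries thus differed in markers, whose part in the Ihh values was not tested. The Ihh level of cluster 25 was 44.2 CPM in DOX (71 cells) and 59.9 CPM in DOX plus AMH (24 cells), with a log2 ratio of 0.44 whose interval, -0.15 to 1.01, spans 0. In the larger cluster 5, with high Epcam and Krt8, Ihh was at 2.30 CPM (269 cells) and 4.87 CPM (122 cells), a log2 ratio of 1.08 (0.33 to 1.85). Both clusters were thus higher in DOX plus AMH, and counting error separated the libraries in cluster 5 only; whether the 2 clusters differ from each other was not tested. Many cluster 25 cells were shallow, with a median of 3889 UMIs over both libraries. Its levels are pooled over UMIs, so the deeper cells weigh more in them.

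The other ligands were scarce. Shh had 0 UMIs in both libraries, where a floor of 3 UMIs over all kept cells would be 0.0260 CPM in DOX and 0.0339 CPM in DOX plus AMH. Dhh, a ligand known from Schwann cells and endothelium, had 35 and 26 UMIs over all kept cells. Of 3 ligand-release genes counted in the epithelial-like class, 2 were lower by 1.3-fold or more: Disp1, which encodes a ligand exporter, was at 18.7 and 12.4 CPM (-0.59, -0.95 to -0.25), and Scube1 at 2.69 and 1.47 CPM (-0.88, -1.99 to 0.12), in a class where 11.2% of all genes were lower. Among regulators of Ihh in that class, 0 of 5 were 1.3-fold apart: Sox17 was at 256 and 302 CPM (log2 ratio 0.24), Gata2 at 75.0 and 87.8 CPM (0.23), Esr1 at 1298 and 1405 CPM (0.11), Pgr at 399 and 378 CPM (-0.08) and Arid1a at 152 and 143 CPM (-0.08). In cluster 5 the epithelial marker Krt8 was at 630 and 507 CPM and Elf3 at 240 and 123 CPM, 2 genes named after their values were seen, so the epithelial cells of the libraries were not alike in all markers.

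**Figure D1:**
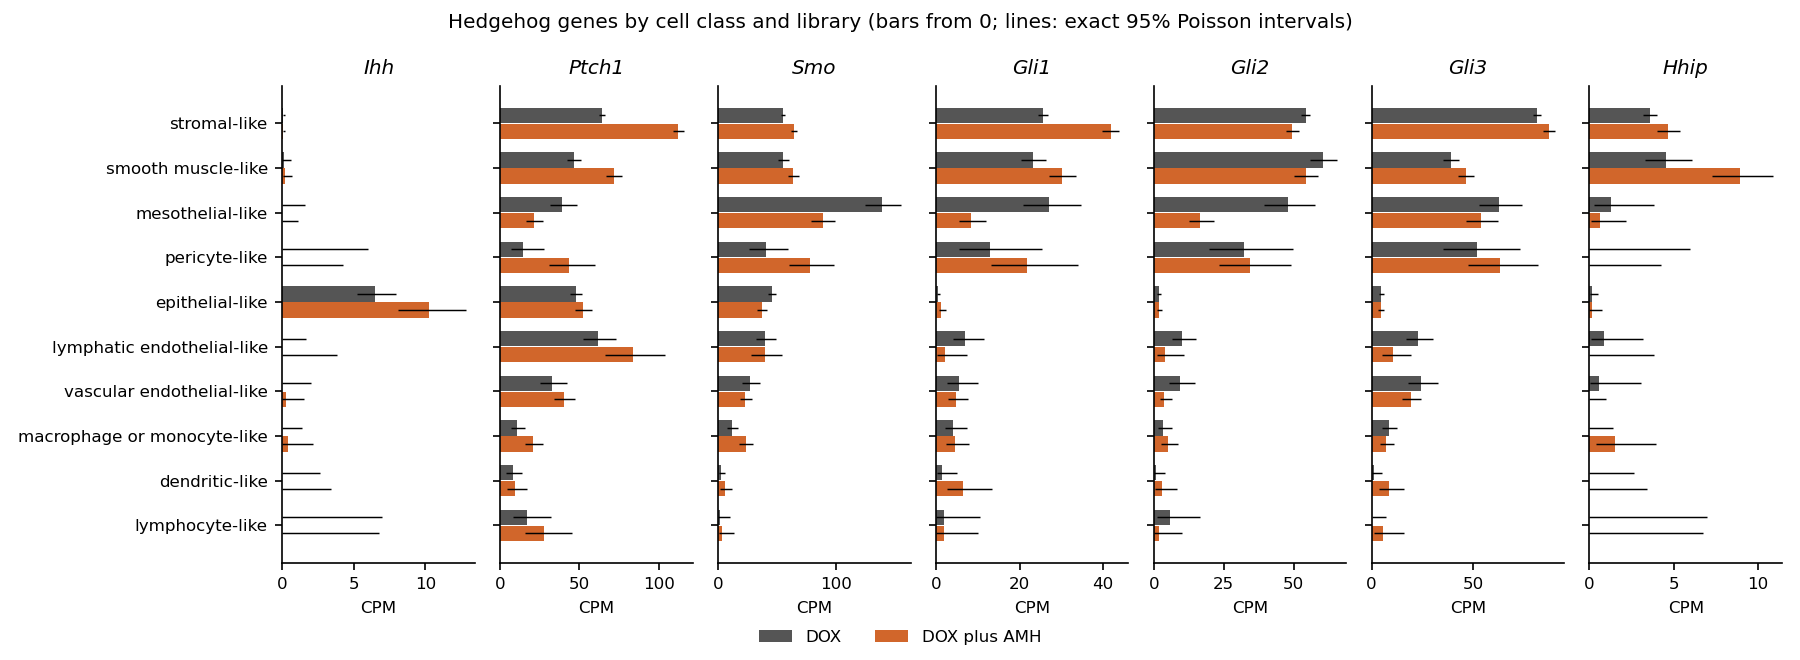
Levels of the 7 hedgehog genes (CPM, x axes from 0) in 10 cell classes (rows), with DOX in grey and DOX plus AMH in orange; lines are exact 95% Poisson intervals of the UMI counts of 1 library. Ihh stands in the epithelial-like row, while Ptch1, at 64.3 and 112 CPM, and Gli1, at 25.6 and 41.8 CPM, are higher in DOX plus AMH in the stromal-like row and lower in the mesothelial-like row.

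Ptch1, both receptor and target gene, was higher in DOX plus AMH throughout the stroma. In stromal-like cells it was at 64.3 CPM (62.5 to 66.2) in DOX and 112 CPM (109 to 116) in DOX plus AMH, from 4891 and 4513 UMIs, a log2 ratio of 0.80 (0.75 to 0.86). Gli1, the target gene that is also a transcriptional activator, stood at 25.6 CPM (24.5 to 26.8) and 41.8 CPM (39.8 to 43.8), a log2 ratio of 0.71 (0.61 to 0.80). For both genes the DOX plus AMH library was the higher and the intervals lay far apart. Gated one by one on their own markers, 76.7% of the stromal-like cells in DOX and 58.0% in DOX plus AMH were again stromal-like. The Ptch1 ratio with cells gated in this way is given among the alternatives below. The inhibitor Hhip was at 3.56 and 4.63 CPM, a log2 ratio of 0.38 (0.10 to 0.65), just under 1.3-fold.

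The genes that carry the signal differed less between the libraries. Smo was at 55.0 and 64.4 CPM (log2 ratio 0.23), Gli2 at 54.2 and 49.6 CPM (-0.13) and Gli3, the main repressor form of the family, at 81.4 and 87.3 CPM (0.10). Of 6 members counted in this class, 2 (Ptch1 and Gli1) were higher by 1.3-fold or more and 0 were lower, where 22.8% of 16090 counted genes were higher and 7.92% lower. The median over these genes was itself 0.15, and TMM scaling, which centres the genes, moved it by -0.19; with it, 11.8% of genes were higher and 14.8% lower by 1.3-fold. Relative to that centre Ptch1 had a log2 ratio of 0.61, Gli1 of 0.51 and Hhip of 0.19, and Gli3 turned from 0.10 to -0.09.

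The share of cells with a Ptch1 UMI was compared at equal depth. With each cell thinned to 2000 UMIs, 11.1% of stromal-like cells in DOX and 17.4% in DOX plus AMH held Ptch1, with counting intervals that did not overlap, against 44.1% and 49.4% before thinning, and 4.95% and 7.96% held Gli1. Macrophage- or monocyte-like cells held Ptch1 in 1.20% and 4.23% of thinned cells (median depths 7700 and 9747 UMIs before thinning), below the stroma in each library. The share of cells was thus higher in DOX plus AMH in both classes. By CPM the log2 ratio of Ptch1 in macrophage- or monocyte-like cells was 0.95 (0.27 to 1.67), from 28 and 54 UMIs, beside 0.80 in the stroma. The part of free RNA in either class was not tested.

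All 8 stromal-like clusters had more Ptch1 in DOX plus AMH, with log2 ratios from 0.52 to 1.12, and each interval lay above 0. In clusters 0, 1, 2, 3, 4, 6, 10 and 11, in that order, 20.4%, 24.4%, 18.9%, 26.5%, 24.9%, 26.3%, 26.2% and 24.2% of counted genes were higher by 1.3-fold, and 5.43%, 6.85%, 6.9%, 6.14%, 7.49%, 17.6%, 9.76% and 13.6% were lower. Gli1 passed 1.3-fold upward in 6 of 8 clusters and downward in 0, with log2 ratios from 0.10 to 0.86; the exceptions were the dividing cluster 6 (24.4 and 26.1 CPM) and cluster 11 (9.76 and 10.8 CPM). Without cluster 6, which lay mostly in 1 library, the class ratio of Ptch1 was still 0.80 and that of Gli1 0.71. Smo and Gli2 were within 1.3-fold in 8 of 8 clusters.

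The stroma was also graded in target gene levels within each library. Ptch1 was highest in cluster 1, at 89.4 and 152 CPM, and lowest in cluster 11, at 15.3 and 21.9 CPM, with cluster 10 next lowest at 19.9 and 42.2 CPM. Cluster 1 cells were led by Slc26a7, Angpt1 and Pdgfra. Cluster 10 was led by the matrix genes Col14a1, Mgp and Col1a2, and cluster 11 by Cfd, Clec3b and Il6. Gli1 was also lowest in clusters 10 and 11 in both libraries, but its highest level, 38.1 and 69.1 CPM, was in cluster 4.

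The co-receptors ran the other way. Cdon, Boc and Gas1 encode membrane proteins that present ligand to Ptch1, and their genes are known to be repressed by hedgehog signalling in several tissues. Cdon was at 24.0 and 38.8 CPM in cluster 1 but at 80.9 and 176 CPM in cluster 11. Boc was at 12.2 and 11.8 CPM in cluster 1 and 57.7 and 63.2 CPM in cluster 11, and Gas1 at 87.3 and 99.5 CPM against 159 and 314 CPM. Clusters 10 and 11 thus combined the lowest Ptch1 with the highest co-receptor levels in both libraries.

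Over the 8 stromal-like clusters the Pearson correlation of log2(CPM + 1) between Ptch1 and Gli1 was 0.94 in DOX and 0.87 in DOX plus AMH. Ptch1 gave -0.96 and -0.92 with Cdon, -0.98 and -0.92 with Boc and -0.89 and -0.93 with Gas1. With the target gene Hhip, Ptch1 gave -0.64 in DOX and 0.32 in DOX plus AMH. These are descriptions over clusters that share a library, and 2 clusters (10 and 11) stand apart from the other 6. None of the members or co-receptors was used to form the clusters.

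**Figure D2:**
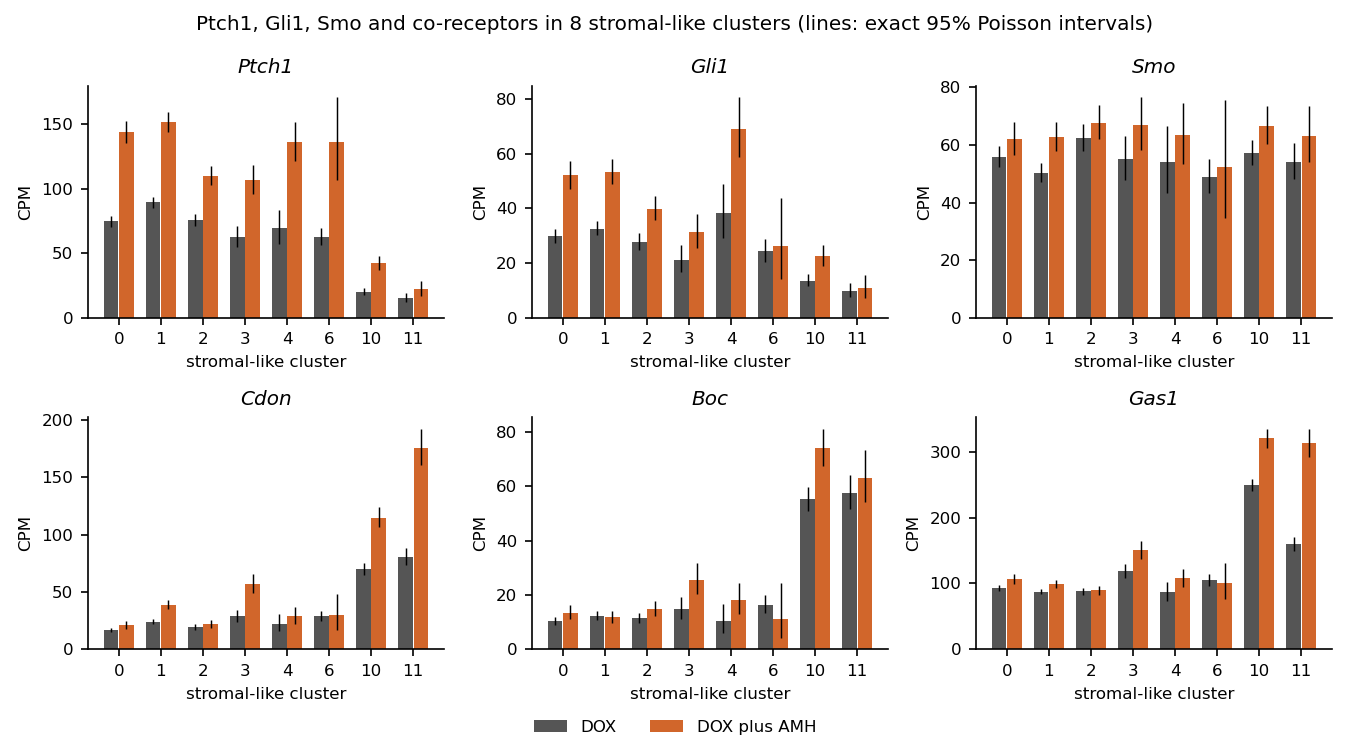
Levels (CPM, y axes from 0) of Ptch1, Gli1 and Smo and of the co-receptor genes Cdon, Boc and Gas1 in 8 stromal-like clusters (x axes), with DOX in grey and DOX plus AMH in orange; lines are exact 95% Poisson intervals. Ptch1 is lowest in clusters 10 and 11, at 19.9 and 15.3 CPM in DOX, where Cdon is highest, at 69.8 and 80.9 CPM.

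The co-receptors were nonetheless not lower in the library with more Ptch1. In the whole stromal-like class Cdon was at 33.2 and 53.8 CPM (log2 ratio 0.70), Boc at 21.8 and 27.0 CPM (0.31) and Gas1 at 121 and 151 CPM (0.32), while Lrp2 had 17 UMIs in each library. So 1 of 3 counted co-receptors, Cdon, was past 1.3-fold, beside 22.8% of all counted genes that were higher and 7.92% that were lower. With TMM scaling the log2 ratio was 0.50 for Cdon, 0.12 for Boc and 0.13 for Gas1.

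Among the 32 other pathway genes listed, 29 were counted in the stroma, of which 11 were above and 0 below the 1.3-fold limits, with a median log2 ratio of 0.31 beside 0.15 over all counted genes and 22.8% of all genes higher. With TMM scaling 2 of the 29 were higher and 1 was lower, a share below that of all genes, and the counts of the groups that follow depend on the scaling. Brakes downstream of the receptor were higher in 3 of 10, among them Sufu, which tethers GLI proteins, at 24.1 and 34.7 CPM (0.53), and Gpr161, a ciliary receptor that restrains the pathway, at 4.71 and 6.42 CPM (0.45). The lowest of the brakes was the kinase gene Csnk1a1, at 218 and 200 CPM (-0.12). With TMM scaling 0 of 10 brakes were higher. Genes of the cilium and of the Smo complex were higher in 4 of 8: Evc, Evc2 and Efcab7, whose products hold Smo at the cilium base, had log2 ratios of 0.54, 0.49 and 0.53. With TMM scaling these were 0.34, 0.30 and 0.34, and 0 of the 8 were higher. The ligand-release gene Scube2 was higher (4.71 and 6.17 CPM, 0.39) and the 4 other release genes were within 1.3-fold; with TMM scaling Scube2 was at 0.20.

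Of 13 genes listed as downstream of Ihh or GLI factors, 10 were counted in stromal-like cells, 3 were higher and 1 was lower, beside 22.8% and 7.92% of all genes, and with TMM scaling 2 were higher and 3 lower. Bmp2, needed for decidualisation of the stroma, was at 21.3 and 33.5 CPM (log2 ratio 0.65), Bmp4 at 22.3 and 35.0 CPM (0.65) and the survival gene Bcl2 at 84.4 and 120 CPM (0.51, or 0.31 with TMM scaling). Fst, which encodes an activin-binding protein, was at 34.3 and 20.7 CPM (-0.73). Mycn (37 and 16 UMIs) had a log2 ratio of -0.29 and Ccnd1 of -0.23, both within 1.3-fold. With TMM scaling Fst was at -0.92, Mycn at -0.48 and Ccnd1 at -0.43, while Bmp2 and Bmp4 were each at 0.46. Nr2f2, the nuclear receptor gene known as a stromal mediator of Ihh, was at 366 and 454 CPM (0.31), within 1.3-fold; it was named after its value was seen. Several of these genes answer to other signals as well.

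Smooth muscle-like cells had the same order of libraries for Ptch1. It was at 46.3 CPM (42.1 to 50.8) in DOX and 71.9 CPM (67.0 to 77.1) in DOX plus AMH, a log2 ratio of 0.64 (0.47 to 0.81), and Gli1 was at 23.2 and 30.1 CPM (0.38, 0.13 to 0.63). Hhip, at 4.52 and 8.92 CPM, had a log2 ratio of 0.98 (0.45 to 1.53). Of 6 counted members, 2 (Ptch1 and Hhip) were higher by 1.3-fold or more and 0 were lower, where 20% of 12331 genes were higher and 7.96% lower. Smo (55.1 and 63.7 CPM), Gli2 (60.4 and 54.2 CPM) and Gli3 (38.9 and 46.2 CPM) were within 1.3-fold, though the Gli3 ratio was 0.91 after thinning. With each cell counted for at most 3 UMIs, the Ptch1 ratio was 0.37, under 1.3-fold, an alternative chosen after seeing the data.

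The balance of the 2 target genes differed between cell classes. Per 100 Ptch1 UMIs over both libraries there were 38.6 Gli1 UMIs (37.1 to 40.1) in the stroma and 44.9 (40.5 to 49.6) in smooth muscle-like cells. In epithelial-like cells Ptch1 was at 47.7 and 52.4 CPM, yet Gli1 was at 0.483 and 1.33 CPM, or 1.57 (0.910 to 2.52) per 100 Ptch1 UMIs. Lymphatic endothelial-like cells, with Ptch1 at 61.9 and 83.5 CPM, had 8.18 (4.76 to 13.2), and vascular endothelial-like cells had 13.5. By library the value was 1.01 and 2.54 in epithelial-like cells and 39.8 and 37.2 in the stroma. Blood-derived cells, where both genes were low, had 26.8 (17.8 to 39.4) over both libraries. Ptch1 in blood-derived cells was at 10.5 and 18.5 CPM, and the part of free RNA in these values was not tested.

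Ordered by level in DOX, Ptch1 was highest in stromal-like cells and then in lymphatic endothelial-like cells, whose intervals overlapped, followed by epithelial-like and smooth muscle-like cells, which overlapped each other. In DOX plus AMH the stromal-like level was separate from the next, lymphatic endothelial-like one. Smo was highest in mesothelial-like cells, at 139 and 88.9 CPM. The mesothelial Smo level was separate from the next in DOX and overlapped the pericyte-like level in DOX plus AMH. Gli2 was highest in smooth muscle-like cells with the stroma next, and these intervals overlapped in both libraries. Gli3 was highest in the stroma, apart from the next class in both. Gli1 was alike within counting error in mesothelial-like, stromal-like and smooth muscle-like cells of DOX. The wide pericyte-like interval in DOX, 12.9 CPM (5.58 to 25.4), overlapped theirs as well. For Gli1 in DOX plus AMH the stroma stood alone at the top. All 3 Gli genes were at or below 10 CPM in epithelial-like, macrophage- or monocyte-like, dendritic-like and lymphocyte-like cells.

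**Figure D3:**
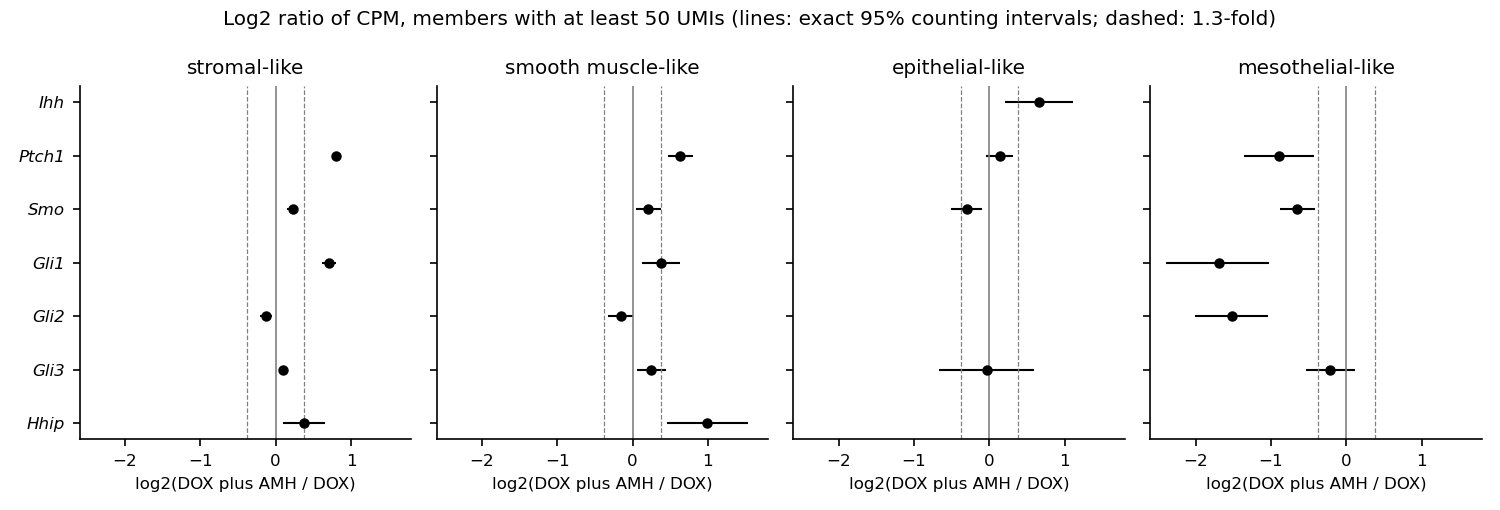
Log2 ratios (x axes, DOX plus AMH over DOX) of the members with at least 50 UMIs in 4 cell classes; points are ratios of CPM from 1 library per group, lines are exact 95% counting intervals and dashed lines mark 1.3-fold. Ptch1 lies right of the upper line in the stroma (0.80) and in smooth muscle-like cells (0.64), and left of the lower line in mesothelial-like cells (-0.89).

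Mesothelial-like cells, which line the outer face of the uterus, showed the opposite order. Gli1 was at 27.0 CPM (20.7 to 34.6) in DOX and 8.35 CPM (5.55 to 12.1) in DOX plus AMH, a log2 ratio of -1.69 (-2.39 to -1.03), from 62 UMIs in 87 cells and 28 UMIs in 136 cells. Gli2 was at 47.9 and 16.7 CPM (-1.52), Ptch1 at 39.2 and 21.2 CPM (-0.89), Smo at 139 and 88.9 CPM (-0.65) and Gli3 at 62.7 and 54.0 CPM (-0.22). Of 5 members counted here, 4 were lower by 1.3-fold or more and 0 were higher, where 30.6% of 9849 genes were lower and 14% higher, and the median of all genes was -0.16. The class was not alike in the 2 libraries in other markers: the 8 smooth muscle markers summed to 1314 CPM in DOX and 260 CPM in DOX plus AMH, the 8 stromal markers to 12935 and 10246 CPM, and the 6 mesothelial markers to 2674 and 2040 CPM, with no defining mesothelial marker at 0. The part of these other transcripts in the lower Gli1, Gli2 and Ptch1 was not tested. When cells were gated one by one on their own markers, Ptch1 turned to a log2 ratio of 0.17 and Gli1 to -0.27, and with at most 3 UMIs per cell Smo stood at 0.028.

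In the remaining classes counts were lower. Ptch1 was higher by 1.3-fold or more in 4 of 7 classes where it was counted: in the stroma, in smooth muscle-like cells, in lymphatic endothelial-like cells (0.43, 0.02 to 0.84, where 18.3% of genes were higher and 16% lower) and in macrophage- or monocyte-like cells. It was within 1.3-fold in epithelial-like and in vascular endothelial-like cells, the latter at 32.7 and 40.0 CPM, where 14.9% of genes were higher and 10.9% lower. The epithelial Ptch1 ratio was 1.15 after thinning. In macrophage- or monocyte-like cells, Ptch1 was at 10.7 and 20.6 CPM and Smo at 11.8 and 23.3 CPM, where 26.2% of genes were higher and 14.3% lower. The part of free RNA in these low levels was not tested. Without a cell filter the log2 ratios of Ptch1 and Smo in this class were 0.30 and 0.17, within 1.3-fold. The lymphatic Ptch1 ratio was 0.37 with TMM scaling and 0.20 with at most 3 UMIs per cell, both within 1.3-fold. Smo in pericyte-like cells was at 40.4 and 77.8 CPM (log2 ratio 0.95, 0.27 to 1.67), where 22.9% of genes were higher and 13.9% lower. Gli3 in lymphatic endothelial-like cells was at 23.0 and 10.4 CPM (-1.14), but its ratio was 0.12 after thinning and -0.03 without a cluster of 40 cells in DOX and 1 cell in DOX plus AMH.

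Hhip, whose product binds and sequesters ligand, was found in few cells. In stromal-like cells 163 of 4910 (DOX) and 101 of 3667 (DOX plus AMH) held a Hhip UMI. In smooth muscle-like cells it was 19 of 916 and 27 of 1107, and the top 1% of cells (9 and 11) held 77.3% and 81.6% of its UMIs there. For Ptch1, ranked on its own, the top 1% of cells held 10.4% and 21.5% of its UMIs. The highest smooth muscle-like cells had 11 Hhip UMIs in DOX and 17 in DOX plus AMH.

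The few Hhip cells lay in different smooth muscle-like clusters in the 2 libraries. In DOX all 44 UMIs were in cluster 8, led by Tnni2, Acta1 and Rspo3, at 9.01 CPM. Cluster 9, led by Actg2, Tagln and Myh11, had 0 UMIs in 459 cells. Pcp4 and Cnn1 were among the leading genes of both clusters. In DOX plus AMH cluster 9 had 89 UMIs in 19 of 532 cells, or 15.5 CPM, and cluster 8 had 9 UMIs, or 1.71 CPM. Set against the 3 UMIs that a count of 0 allows in DOX, Hhip in cluster 9 was at least 25.2-fold higher in DOX plus AMH. In cluster 8 its log2 ratio was -2.40 (-3.62 to -1.34). In these clusters 24.1% and 20.2% of genes were higher and 9.92% and 8.02% lower by 1.3-fold. Stromal-like clusters differed in the same manner: Hhip had 0 and 20 UMIs in cluster 4 and 46 and 4 UMIs in cluster 11. Among stromal-like clusters of DOX, Hhip was highest in clusters 11 and 10, at 8.16 and 7.44 CPM, where Ptch1 was lowest. Cluster 9 also had the largest Ptch1 ratio of the smooth muscle-like clusters, at 25.5 and 61.0 CPM (log2 ratio 1.26), against 67.0 and 83.7 CPM (0.32) in cluster 8.

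Cells with Hhip carried far more Ptch1. This comparison was chosen after its values were seen, and cells of 1 library are not replicates. In stromal-like cells of DOX, Ptch1 was at 60.4 CPM (58.6 to 62.2) without and 173 CPM (158 to 190) with a Hhip UMI, and in DOX plus AMH at 106 CPM (102 to 109) and 329 CPM (298 to 363). In smooth muscle-like cells the levels were 43.0 and 194 CPM in DOX and 61.2 and 335 CPM in DOX plus AMH. Ptch1 was thus higher in Hhip cells in both classes and both libraries. It was not carried by single cells only, since 69.9% and 74.3% of stromal-like Hhip cells held Ptch1, against 43.2% and 48.7% of the other cells at similar median depths (15351 and 11021 UMIs, against 14773 and 10146).

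Gli1 differed in the same direction but less. In stromal-like cells it was at 25.0 and 44.0 CPM without and with Hhip in DOX, and at 41.1 and 63.9 CPM in DOX plus AMH. Smo (55.3 and 47.8 CPM in DOX, 64.4 and 65.5 CPM in DOX plus AMH) and Gli2 (53.8 and 65.4 CPM, 49.7 and 45.9 CPM) differed less, with overlapping intervals except for Gli2 in DOX. With all Hhip cells left out, an alternative chosen after seeing the data, the Ptch1 ratio between libraries was 0.81 in the stroma and 0.51 in smooth muscle-like cells, both still past 1.3-fold.

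**Figure D4:**
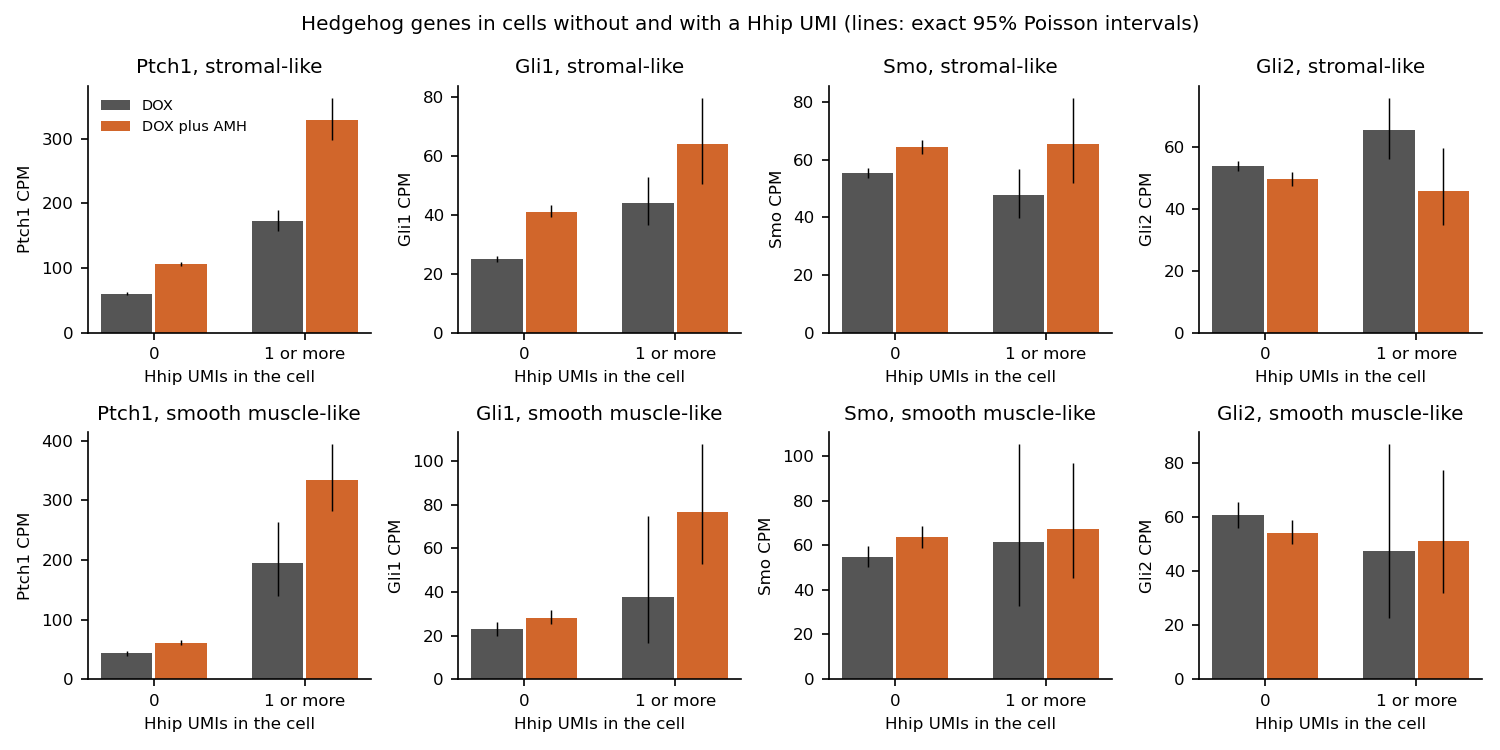
Levels (CPM, y axes from 0) of Ptch1, Gli1, Smo and Gli2 in stromal-like (top) and smooth muscle-like (bottom) cells with 0 or with 1 or more Hhip UMIs, DOX in grey and DOX plus AMH in orange; lines are exact 95% Poisson intervals and cells are not replicates. Ptch1 is higher in cells with Hhip in all 4 pairs, for example 60.4 against 173 CPM in stromal-like cells of DOX, while Smo and Gli2 differ less.

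Across 25 clusters of at least 50 cells, with both libraries summed, the genes whose log2(CPM + 1) followed each member most closely were taken from 13567 candidates. For Ihh they were Pkhd1 (Pearson r 0.90), 9330185C12Rik, Grin2b, BC048679 and Gkn3 (0.88), of which BC048679 and Gkn3 were among the leading genes of the gland-like cluster. For Gli1 they were Hoxa10 (0.94), Hoxa11, Ccdc8, Hoxa9 and Mdk (0.93). The HOX genes are positional regulators of the female reproductive tract, and Hoxa10 and Hoxa11 were also stromal markers here. For Ptch1 they were Fam189a2 (0.92), Dtd1, Mettl27, Sall1 and Dleu7 (0.81), and for Hhip A730056A06Rik (0.88), Ssc5d, Rprm, Osbp2 and Plcz1 (0.84). The clusters share 2 libraries, and these values are descriptions.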

How the data were processed

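Per the file headers and the submitters' processing notes, the authors used Cell Ranger 7.0.0 with the mm10 build. Values in the deposited matrices are raw counts (UMIs by gene and cell barcode), already filtered for empty droplets at a lowest total of 500 UMIs. Intron and strand settings are not given in the sources used here. Barcodes with at least 1000 UMIs, 500 genes and at most 15% mitochondrial UMIs were kept. The doublet caller Scrublet, at its own threshold, marked 396 barcodes in DOX and 0 in DOX plus AMH, so the top 5% by score was removed from each library instead (396 and 365 barcodes), a choice made after seeing this. Cells were clustered together in scanpy 1.11.5 (2000 variable genes without the pathway genes and mitochondrial genes, 30 principal components, 15 neighbours, Leiden resolution 1, igraph 0.11.9). Names came from marker lists, by their mean log2 fold over the mean of the other clusters; this scoring, a pseudocount of 20 CPM and a gap of at least 0.3 to the next class were set after seeing the data, and 2 clusters stayed unnamed.

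UMIs were summed per library and class. Intervals are exact Poisson for levels, exact binomial (Clopper-Pearson) for shares, and from the exact binomial split of UMIs for ratios; UMI counting error is all they cover. With 1 pooled library per group no p-value was computed. The named genes were all 7 members, each list's 3 highest and 3 lowest ratios at most, all co-receptors, Shh and Dhh, and the 5 genes most like Ihh, Ptch1, Gli1 and Hhip (at least 500 UMIs). Results on some listed genes are not reported here. The members and lists were chosen with earlier results of these data known. The ratio calculation was tested on simulated data. Alternatives covered cell filters, doublets, scaling, thinning, clustering and gating.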

Additional observations from a re-analysis of the deposited data

Results flagged for a closer look

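Ptch1 was higher in DOX plus AMH in 4 classes and lower in 1, each beyond 1.3-fold and with its counting interval on that side of 0. Its log2 ratio was 0.80 in stromal-like, 0.64 in smooth muscle-like, 0.43 in lymphatic endothelial-like and 0.95 in macrophage- or monocyte-like cells, and -0.89 in mesothelial-like cells. Gli1 differed in opposite directions in stromal-like (0.71) and mesothelial-like cells (-1.69). Smo was higher in macrophage- or monocyte-like (0.98) and pericyte-like cells (0.95) and lower in mesothelial-like cells (-0.65). There is 1 library per group, so these differences between classes were not tested.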

How the results depend on the processing

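No paired analysis was possible because each group has 1 library of pooled animals. Of 460 recomputed values, 408 stayed within the counting interval of the reported value or kept the count. A further 49 moved outside it with the same direction or without having been past 1.3-fold. The last 3 had been past 1.3-fold and turned sign: Gli3 in lymphatic endothelial-like cells at 2000 UMIs per cell (0.12), Ptch1 in mesothelial-like cells gated one by one (0.17) and Smo in mesothelial-like cells with at most 3 UMIs per cell (0.028). Ratios within 1.3-fold that changed sign, such as Gli3 in stromal-like cells with TMM scaling (-0.09), are not among these 3. For Ptch1 in stromal-like cells the log2 ratio was 0.61 with TMM scaling, 0.86 as the mean of each cell's CPM, 0.73 with at most 3 UMIs per cell, 1.09 with each library clustered on its own and 0.68 with cells gated one by one. For Gli1 it was 0.51 with TMM scaling and 0.90 with each library clustered on its own. Hhip in stromal-like cells was 0.059 after thinning, and Ihh in epithelial-like cells 2.17 with each library clustered on its own; the cause was not tested. The counts of members at least 1.3-fold higher (2) and lower (0) in stromal-like cells were the same at 1.5-fold, with at least 20 UMIs and with TMM scaling. Of 29 other pathway genes in the stroma, 11 were higher without and 2 with TMM scaling, and over all 16090 genes 3670 and 1899. The limit of 3 UMIs per cell, the exclusion of cells with Hhip and TMM scaling of the lists were chosen after seeing the data. Ihh (194 UMIs in all) and Hhip had the fewest UMIs of the members, and no replicate spread is known for any value.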

Other observations

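The squamous epithelial-like cells, 478 of them in DOX plus AMH, formed 2 clusters that differed in hedgehog genes. Gli3 was at 68.5 CPM in cluster 21 (260 cells, led by Krt15 and Trp63) and at 8.80 CPM in cluster 22 (218 cells, led by Krt13 and Spink5). Smo was at 48.2 and 33.7 CPM, Gli2 at 8.31 and 2.84 CPM and Ptch1 at 25.1 and 32.0 CPM. Per 100 Ptch1 UMIs there were 16.2 Gli1 UMIs (10.1 to 25.1) in cluster 21 and 4.66 (2.30 to 8.49) in cluster 22, and Ihh had 4 UMIs in both together. DOX had 7 such cells, so the libraries could not be compared there.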
